A study of Bos grunniens with 18 samples.

Results

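Circular RNAs (circRNAs) made of annotated exons were measured in the testis of male yaks (Bos grunniens) at 3 ages. They are the entries of the deposited circRNA table whose type is annotated exons: 49441 of 73679 circRNAs, or 67.1%, holding 78.6% of all back-splice reads. The other entries spanned exon and intron (13777), lay between genes (6967), came from 1 exon (1245), lay within an intron (1132) or were antisense to a gene (1117).

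Testis tissue was collected at castration from 9 animals of the same cooperative, 3 each at 6 months (Y6M), 18 months (Y18M) and 4 years (Y4Y), and every animal gave 1 ribosomal RNA-depleted library. Another label puts adolescence on Y6M, adulthood on Y18M and infancy on Y4Y, which goes against the ages in the titles and the protocol. Libraries were grouped by title. Each library is a separate animal, so p-values reflect the spread between animals.

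A circRNA forms when a splice donor is joined to an acceptor upstream of it, which closes 1 or more exons into a ring with no free ends. Such rings resist exonucleases and often outlast the linear RNA of the same host gene, and the testis, like the brain, is known for a rich set of them. Their formation competes with linear splicing of the host and is favoured by paired repeats in the flanking introns and by RNA-binding proteins such as QKI, while the editing enzyme ADAR and the helicase DHX9 can oppose it. A circRNA is counted by reads that cross its back-splice junction, whereas the count of its host gene can also include reads from inside the ring.

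The 49441 circRNAs came from 8359 host genes, with a median of 3 per host. Of the hosts, 2317 had a single circRNA and 1535 had at least 10. Spliced length had a median of 654 bases (interquartile range 448 to 1006, lowest 63, highest 14358), against a median genomic span of 12441 bases, so that exons filled a median of 6.03% of the span. Alternative circles of a gene mostly shared a splice site: 83.3% of the circRNAs had the same start or end coordinate as another circRNA of their host. In hosts with 2 or more circRNAs, the most abundant one held a median of 52.1% of the host's back-splice reads.

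Most were rare and a few were shared by all animals. Of the circRNAs, 49.9% had reads in 1 library only, and 69.8% had fewer than 10 reads in all 9 libraries together. The 3.96% found in all 9 libraries held 44.4% of the annotated-exon reads. There were 634 circRNAs with reads in all 3 libraries at 6 months and none at 4 years, 1059 with reads in all 3 at 4 years and none at 6 months, and 272 with reads in all 6 older libraries and none at 6 months. Any library of the age held reads for 23785 circRNAs at 6 months, 30912 at 18 months and 27293 at 4 years. The same counts over circRNAs of all types were not made, so they are not read as gain or loss with age.

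Depth set what could be compared. Libraries held 22.95 to 33.12 M gene counts, 119786 to 227150 back-splice reads and 90033 to 184272 reads of annotated-exon circRNAs, and between 12042 and 17439 annotated-exon circRNAs were detected per library. A circRNA with many reads in a pair of libraries was sometimes listed at 0 in the third library of the same age. Among circRNAs with at least 20 reads in 2 libraries of an age, the third was at 0 for 108 of 1096 at 6 months (9.85%), 137 of 1261 at 18 months (10.9%) and 110 of 916 at 4 years (12.01%). An example is a 486-base circle of MON2, a protein of Golgi-to-endosome traffic, with 0, 782 and 0 reads at 6 months, 811, 782 and 0 at 18 months and 1365, 744 and 482 at 4 years. Such zeros fell in every replicate number of every age, and every circRNA in the table had at least 2 reads in 1 library, so a listed 0 does not show that a circle was absent. Counts are therefore also given below without 391 circRNAs of irregular counts. These show the pattern above, or have at least 20 reads in 1 library of an age and 0 in the other 2. Counts are given as well for the circles of each host summed, and both were chosen after seeing the data.

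The share of back-splice reads that came from annotated exons was lower in the older animals. It was 83.1, 82.3 and 82.9% at 6 months (mean 82.8% ± 0.44, SD, n = 3), 74.6, 81.1 and 78.5% at 18 months (78.1% ± 3.29) and 74.4, 74.8 and 75.2% at 4 years (74.8% ± 0.36). All 6-month libraries lay above all 4-year libraries, and the 18-month libraries covered the range between them. The exact permutation test over the 3 ages gave p = 0.0107 (two-sided, 0.0321 after Benjamini-Hochberg adjustment over 6 values per library, n = 3 each). In the shallowest library the share of 75.2% had an exact 95% binomial (Clopper-Pearson) interval of 74.9 to 75.4%, which covers counting error only.

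The other amounts did not pass the same test. Annotated-exon back-splice reads per 1000000 gene counts were 4884 ± 554 at 6 months, 5983 ± 1398 at 18 months and 4188 ± 260 at 4 years (exact permutation p = 0.0821, adjusted 0.0929, n = 3 each). After thinning to an equal depth of 90033 reads, 12307 ± 602, 14916 ± 201 and 13909 ± 1318 annotated-exon circRNAs were expected to keep a read at 6 months, 18 months and 4 years (exact permutation p = 0.0536, adjusted 0.0911). Low counts were cut before deposit, so thinned libraries can hold single reads that the unthinned shallowest library has lost. The read-weighted mean spliced length was 656 ± 13.4, 670 ± 30.6 and 710 ± 5.6 bases (exact permutation p = 0.0607, adjusted 0.0911), and the 100 most abundant circRNAs of a library held 22.6, 20.98 and 21.8% of its annotated-exon reads (exact permutation p = 0.0929, adjusted 0.0929).

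Reads of annotated-exon circRNAs from chromosome X fell with age. Their share was 3.44, 3.02 and 3.14% at 6 months, 1.72, 2.69 and 2.32% at 18 months and 1.46, 1.34 and 1.49% at 4 years. No 2 ages overlapped, and the exact permutation test gave p = 0.0036, the smallest these 9 libraries allow (0.0214 adjusted over 6 values, n = 3 each). This share was added after seeing the data. The share of host gene counts that came from the 244 hosts on chromosome X moved alongside, at 2.64% ± 0.0772, 1.61% ± 0.710 and 1.01% ± 0.0677.

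**Figure D1:**
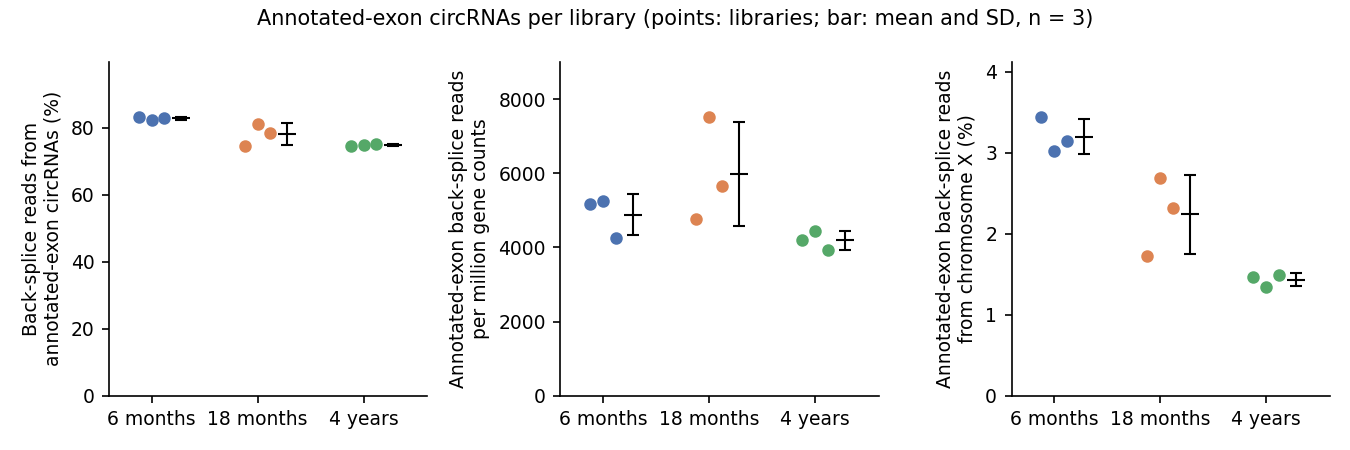
Share of back-splice reads from annotated-exon circRNAs (left, %), annotated-exon back-splice reads per 1000000 gene counts (middle) and share of annotated-exon reads from chromosome X (right, %), by age. Points are libraries and bars the mean and SD of 3; the chromosome X share falls from 3.2% at 6 months to 1.43% at 4 years with no overlap, whereas reads per 1000000 gene counts overlap between ages.

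The most abundant annotated-exon circRNA over all libraries was a 420-base circle of MORC3, a nuclear ATPase that binds methylated histones. Levels are given as TMM-scaled back-splice reads per 1000000 (CPM). It had 20718, 16134 and 15384 CPM at 6 months, 18439, 16352 and 17491 at 18 months and 16621, 16580 and 14126 at 4 years. These ranges overlap, and the log2 fold change at 4 years against 6 months was -0.14 ± 0.26 (SE, adjusted p = 0.73, edgeR quasi-likelihood test) while that of the MORC3 gene was -1.06 (edgeR adjusted p = 0.00068).

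The circle next in rank was a 436-base one of MAP7, a protein that binds microtubules and recruits kinesin. It had 15547, 17791 and 16227 CPM at 6 months, 15091, 36604 and 31177 at 18 months and 5252, 5019 and 5095 at 4 years. All 4-year libraries lay below all others, and at 18 months 1 library stayed at the 6-month level while the other two were higher. Its log2 fold change at 4 years was -1.69 ± 0.35 (edgeR adjusted p = 0.014), whereas the MAP7 gene was at 109.8 ± 6.52, 191.2 ± 52.6 and 121.1 ± 5.36 CPM and was not called at 4 years (log2 0.14, edgeR adjusted p = 0.56).

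A 283-base circle of PHF21A, a subunit of a histone demethylase complex, fell together with its gene. It had 14591, 12540 and 9975 CPM at 6 months, 3843, 7270 and 5324 at 18 months and 2587, 3009 and 3433 at 4 years, with no overlap between 6 months and either older age. The log2 fold changes at 4 years were -2.04 ± 0.36 for the circle (edgeR adjusted p = 0.0097) and -2.09 for the gene.

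Other abundant circles did not pass the test between any ages. A circle of ARHGAP10, a GTPase-activating protein, ran from 2724 to 13394 CPM with overlapping ages. A 447-base circle of SACM1L, a phosphoinositide phosphatase, had 8937, 484 and 6051 CPM at 6 months, 8462, 671 and 8346 at 18 months and 798, 9885 and 7724 at 4 years, so 1 library of each age lay far below the other two. A 502-base circle of TENT2, a poly(A) polymerase, had 5342, 4466 and 177 CPM at 4 years, against 7842 to 9657 at 6 months.

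**Figure D2:**
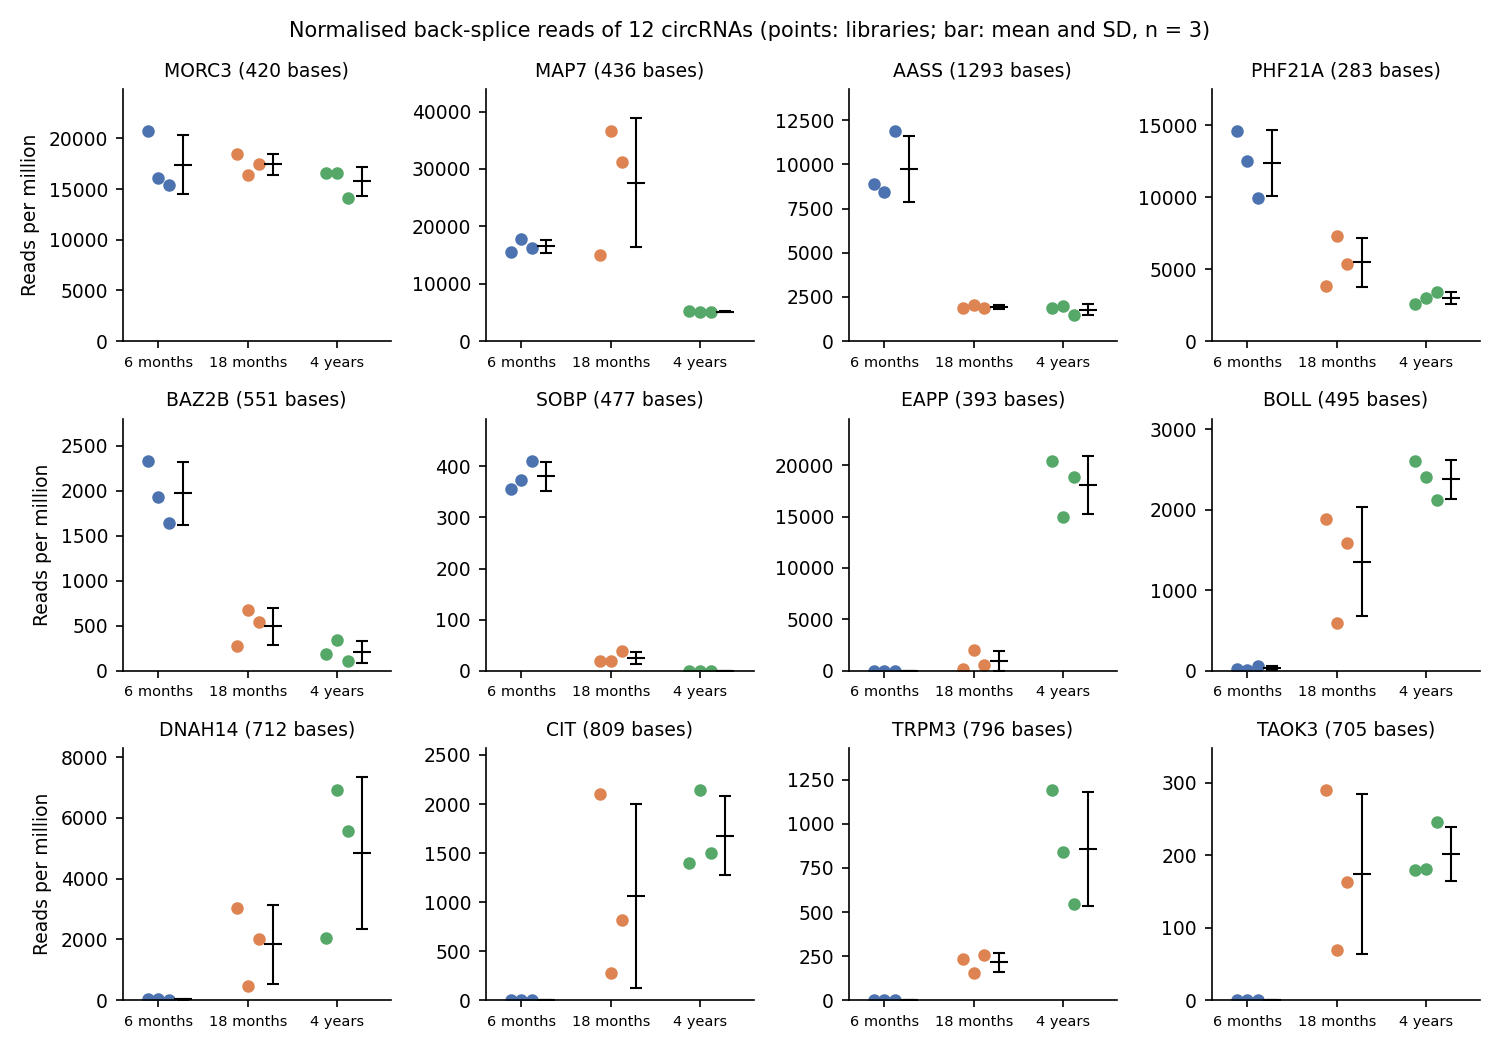
TMM-scaled back-splice reads per 1000000 of 12 annotated-exon circRNAs by age, with points for libraries and bars for the mean and SD of 3, each panel on its own axis from 0. The MORC3 libraries overlap between ages, MAP7, AASS, PHF21A, BAZ2B and SOBP have their lowest means at 4 years, and the circles of EAPP, CIT, TRPM3 and TAOK3 have 0 reads in every 6-month library.

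Enough reads for a test were held by 3166 annotated-exon circRNAs on 1911 hosts, which are 6.4% of the circRNAs and 65.7% of their reads. A circRNA that passed the filter through 1 age had to be high there, so the counts below describe the tested circRNAs and not all of them. Between 6 months and 4 years, 569 were called at an adjusted p under 0.05 (edgeR quasi-likelihood test, adjusted over 3877 circRNAs of all types), 388 higher and 181 lower. Over circRNAs of all types 21% were called, 15.2% higher and 5.8% lower. The smallest change called was 1.16 on the log2 scale, and 557 of the 569 also had no overlap between the ages, against 47.1% of all 3166 tested. Of the called circRNAs, 143 higher ones had no read at 6 months and 32 lower ones none at 4 years.

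The number of calls moved with the library left out. Leaving out replicate 1 at 6 months left 164 higher and 65 lower, and over all 9 such fits the counts ran from 164 to 516 higher and from 64 to 242 lower. Without the circRNAs of irregular counts, which were 339 or 10.7% of those tested, 12 of the higher and 3 of the lower calls dropped out. Their uneven counts within an age make a call less likely in the first place. The small number dropped therefore does not show that the other calls are free of such zeros. A circRNA at 0 in all 3 libraries of an age cannot show that pattern there, so leaving them out does not bear on calls from or to 0. Scaling by the library sizes of the gene table moved the median of all tested circRNAs from 0.02 to -0.67 and the calls to 279 higher and 365 lower, so that 43.3% of the calls were higher against 68.2%. Directions below are therefore relative to the typical circRNA of a library, and no called circRNA named with its values changed direction under another scaling.

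Summed per host, the annotated-exon circles were called higher at 4 years than at 6 months for 462 of 2907 hosts and lower for 365 (28.4% called, 15.9% higher and 12.6% lower, edgeR on the sums). The host gene was itself called higher for 376 of the 462 and lower for 285 of the 365, where of all 2907 hosts 1143 genes were called higher and 1036 lower. It was called in the opposite direction for 25 and 35 hosts.

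Some hosts of the male germ line gave circles that were near or at 0 at 6 months. A 495-base circle of BOLL, a germ-cell RNA-binding protein needed for meiosis, had 25.4, 8.50 and 60.2 CPM at 6 months, 1879, 595 and 1589 at 18 months and 2609, 2400 and 2125 at 4 years. Every older library was above every 6-month library, and the log2 fold change at 4 years was 6.22 ± 0.76 (edgeR adjusted p = 0.0056) beside 5.64 for the gene. BOLL had 20 annotated-exon circRNAs, of which 13 were tested, more than for any other host, and 10 of these were called higher at 4 years.

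DNAH14, a dynein heavy chain of the axoneme, had 118 annotated-exon circRNAs, with 9 of 11 tested called higher at 4 years. Its 712-base circle had 25.4, 42.5 and 0 CPM at 6 months, 3029, 469 and 1999 at 18 months and 2058, 6914 and 5558 at 4 years (log2 7.64 ± 1.10 at 4 years, edgeR adjusted p = 0.0062, gene 6.83). The sum over its tested circles was 99.0 ± 43.7, 3054 ± 2414 and 7234 ± 2214 CPM at the 3 ages.

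CIT, the citron kinase of cytokinesis and not a host of the germ-line lists below, had all 11 of its tested circles called higher at 4 years. The 809-base one had 0 reads at 6 months, 2104, 279 and 814 CPM at 18 months and 1394, 2143 and 1498 at 4 years, which is at least 192-fold higher at 4 years than a floor of 3 reads over the 6-month libraries (edgeR adjusted p = 0.0061, gene log2 4.69). Such a bound takes the listed zeros as counted and covers counting error only, so it does not hold where reads of a circle went unlisted. All 35 CIT circles summed were at log2 5.43 ± 0.65 (edgeR adjusted p = 0.00044). By contrast BRWD1, a chromatin reader with 78 annotated-exon circRNAs, had 9 tested circles and none called, with a summed level of 2062 ± 293, 1812 ± 292 and 1335 ± 159 CPM. ANKRD42, an ankyrin-repeat protein, had 3 of 12 tested circles called higher.

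The lists of hosts were drawn up with earlier results of these data known, and they are described by their counts and medians beside those of all tested circRNAs (388 higher, 181 lower, median log2 0.02 at 4 years against 6 months). In the list of flagellum and axoneme genes, 23 of 48 tested circles on 24 hosts were called higher at 4 years and none lower, with a median log2 fold change of 3.73, or 3.56 with circles at 0 set to their bound. The called hosts were the dynein heavy chains DNAH2, DNAH6, DNAH8, DNAH12 and DNAH14, the cilia and flagella proteins CFAP43, CFAP54 and CFAP70, and ARMC3, CCDC40, DRC7, FSIP2, IQUB and TTC29. A 526-base circle of DNAH6 had 42.3, 42.5 and 0 CPM at 6 months, 131, 88.7 and 232 at 18 months and 1338, 1409 and 1199 at 4 years. Every 4-year library lay above every 18-month library. Leaving out 1 library gave 7 to 26 called higher in this list.

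For hosts of the spermatid and acrosome, 9 of 18 tested circles were called higher and none lower (median 4.36, or 3.87 with bounds), on CCDC7, CREM, DPY19L2 and RFX4. CREM is a transcription factor of spermatids, and its 577-base circle had no read at 6 months and was at least 19.2-fold higher at 4 years (edgeR adjusted p = 0.013). All 3 CREM circles summed had 0, 4 and 5 reads at 6 months and rose less (log2 2.85 ± 0.85 at 4 years, edgeR adjusted p = 0.025). DPY19L2, which attaches the acrosome to the nucleus, had a circle with 3 reads in all at 6 months and a ratio of 173 at 4 years (95% counting interval 58.9 to 843, edgeR adjusted p = 0.013). All 32 DPY19L2 circles summed were at log2 5.80 ± 0.80 at 4 years (edgeR adjusted p = 0.00067). Leaving out 1 library gave 4 to 11 called higher in the list. The symbol CCDC7 stands on more than 1 identifier, so that host is uncertain.

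Meiosis hosts had 8 of 28 tested circles called higher and none lower (median 1.5), on ATM, HORMAD2, SMC1B, SYCP1, TEX14 and ZCWPW1. SYCP1, a core protein of the synaptonemal complex, gave a 605-base circle with 0 reads at 6 months, 18.7, 12.7 and 0 CPM at 18 months and 135, 210 and 245 at 4 years. Its call at 4 years (edgeR adjusted p = 0.014) was lost without some single libraries. All 21 SYCP1 circles summed had 5, 9 and 12 reads at 6 months (log2 3.62 ± 0.66 at 4 years, edgeR adjusted p = 0.0024). Hosts of the piRNA pathway, which silences transposons in germ cells, had 4 of 12 called higher and none lower (median 2.80), on PIWIL1, TDRD5 and TDRD12. The 854-base PIWIL1 circle had no read at 6 months, 281, 101 and 124 CPM at 18 months and 562, 752 and 395 at 4 years, at least 66.1-fold higher at 4 years (edgeR adjusted p = 0.0062, gene log2 8.56). All 14 PIWIL1 circles summed had 0, 10 and 0 reads at 6 months (log2 5.26 ± 0.89 at 4 years, edgeR adjusted p = 0.0016). Leaving out 1 library gave 2 to 10 called higher for meiosis, and 1 to 3 higher and 0 or 1 lower for the piRNA pathway.

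Sertoli and Leydig cell hosts gave few testable circles, and those called were lower. For Sertoli cell hosts 3 of 4 tested circles were called lower at 4 years (CDH2, COL4A3 and GATA4, median -2.70) and for steroidogenic Leydig hosts 2 of 7 (FDXR and LHCGR, median -2.90), with none higher in either. Without any 1 of the 6-month or 4-year libraries, or with no filter on low counts, none of the Sertoli circles was called, and over all fits that left out a library 0 to 3 Sertoli and 1 to 3 Leydig circles were lower. The 435-base circle of FDXR, the mitochondrial ferredoxin reductase of steroid synthesis, had 1363, 952 and 1094 CPM at 6 months, 224, 266 and 116 at 18 months and 202, 181 and 68.1 at 4 years (log2 -2.90 ± 0.59 at 4 years, edgeR adjusted p = 0.013, gene -3.29). The circle of LHCGR, the luteinizing hormone receptor, was at 220, 119 and 110 CPM at 6 months and at 0 reads at 4 years, at least 13.5-fold lower (edgeR adjusted p = 0.014). That call was lost without replicate 1 at 6 months. All 10 LHCGR circles summed had 97, 75 and 48 reads at 6 months and 19, 15 and 9 at 4 years. Their sum fell less (log2 -2.14 ± 0.57, edgeR adjusted p = 0.015). The GATA4 circle had 118, 85.0 and 90.3 CPM at 6 months and no read in any older library, and its call (edgeR adjusted p = 0.047) was lost in most fits that left out a library.

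In the matrix and stroma list 1 of 11 tested circles was called higher (COL14A1) and 2 lower (COL15A1 and LAMB1). A 362-base circle of COL15A1, a basement membrane collagen, had 6864, 3305 and 2830 CPM at 6 months and 697, 648 and 708 at 4 years (log2 -2.66 ± 0.53, edgeR adjusted p = 0.013), while the gene fell by 4.27. The macrophage list had 2 of 4 called higher, on MRC1, and 1 lower, on ITGA4. Fits without 1 library gave 0 or 1 higher and 1 or 2 lower for matrix and stroma, and 1 or 2 higher and 0 or 1 lower for macrophages. The peritubular, endothelial and epididymal lists had 4, 1 and 1 tested circles with none called, and no circle of an erythroid gene was tested.

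Marker genes of germ, Sertoli and Leydig cells moved in the direction of the circles of such hosts in the same libraries. The Sertoli markers include CDH2, COL4A3 and GATA4 and the Leydig markers FDXR and LHCGR, the hosts of the called circles. These sums are therefore not separate from those hosts. The summed level of 8 germ cell markers was 12.5 to 27.4 CPM at 6 months, 279 to 1744 at 18 months and 1809 to 2226 at 4 years. Sertoli markers summed to 10624 to 13605, 2536 to 6459 and 2350 to 2397 CPM, and Leydig and steroid markers to 18465 to 24924, 3899 to 6565 and 3557 to 5733 CPM. Endothelial markers summed to 595 to 714, 265 to 344 and 296 to 341 CPM, peritubular muscle markers to 1445 to 1535, 535 to 1482 and 536 to 614, and macrophage and leukocyte markers to 716 to 1120, 512 to 888 and 504 to 576. Epididymis and rete markers summed to 47.3 to 62.2, 113 to 126 and 114 to 123 CPM. The circles of the endothelial, peritubular, macrophage and epididymal lists did not all move with their markers. Their median log2 fold changes at 4 years against 6 months were 2.20, -0.27, 1.27 and -2.81 in that order, on 1 to 4 tested circles. The erythroid list summed to 0.46 to 0.95, 5.81 to 80.03 and 74.3 to 133 CPM, nearly all of it HEMGN, a nuclear protein of blood-forming cells, with 0 to 3, 113 to 2391 and 1846 to 4449 reads per library. The globins had few reads in every library, 4 to 57 for HBA and 0 to 6 for HBB. In bulk tissue, fewer cells of a type and less RNA per cell cannot be told apart, and the part of cell makeup in the circRNA results was not tested.

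Circles of broadly expressed hosts moved in both directions. Among chromatin modifiers 6 of 83 tested circles were called higher and 3 lower (median -0.29), among ubiquitin ligases 1 of 70 higher and 2 lower (median -0.41), and among hosts known for circRNAs in other mammals 1 of 60 higher and 3 lower (median -0.45). Splicing and RNA-binding hosts had 8 of 43 higher and 2 lower (median 0.02, which falls to -0.67 with gene-table library sizes). Centrosome and cilia hosts had 3 of 46 higher and 2 lower (median 0.62, or -0.09 with gene-table library sizes). With 1 library left out there were 1 to 6 higher and 1 to 4 lower for chromatin modifiers, 0 or 1 and 0 to 3 for ubiquitin ligases, 0 to 2 and 1 to 4 for the known circRNA hosts, 2 to 9 and 1 to 3 for splicing hosts, and 2 to 4 and 1 to 3 for centrosome hosts. A 471-base circle of NSD2, a histone H3K36 methyltransferase, had 669, 476 and 512 CPM at 6 months, 6274, 1469 and 3596 at 18 months and 4341, 4619 and 4209 at 4 years (log2 2.99 ± 0.52 at 4 years, edgeR adjusted p = 0.0097, gene 2.84).

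The circle with the largest change at 4 years, counting circles at 0 by their bound, came from EAPP, a protein that binds E2F factors. Its 393-base circle (chromosome 21, 44945325 to 44948098, minus strand, coordinates as in the files) had 0, 0 and 0 reads at 6 months, 16, 317 and 74 at 18 months and 1820, 1576 and 1384 at 4 years. That is 150, 2008 and 573 CPM at 18 months and 20468, 15008 and 18853 at 4 years, the highest level of any circle named here at that age. The ages did not overlap, and, with the listed zeros taken as counted, the circle was at least 116-fold higher at 18 months and at least 2000-fold higher at 4 years than at 6 months (edgeR adjusted p = 0.018 and 0.0056). The call at 4 years held in every fit that left out a library, and that at 18 months was lost without replicate 1 at 6 months. The EAPP gene rose far less, from 44.9 ± 7.74 to 99.5 ± 6.93 CPM (log2 1.15 ± 0.29, edgeR adjusted p = 0.0059).

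A pair of other EAPP circles shared the end at 44948098 with it. The 507-base one had 84, 116 and 79 reads at 6 months, 668, 282 and 615 at 18 months and 803, 1000 and 76 at 4 years. The 275-base one had 8, 1 and 0, then 465, 0 and 0, then 571, 642 and 681 reads. Their counts were uneven within an age, so the circles of EAPP were also summed: 92, 117 and 79 reads at 6 months, 1149, 600 and 689 at 18 months and 3194, 3220 and 2141 at 4 years. In the fit on host sums the change was 2.88 ± 0.40 on the log2 scale at 18 months (edgeR adjusted p = 0.0016) and 5.10 ± 0.44 at 4 years (edgeR adjusted p = 1e-04). The 507-base circle held nearly all EAPP back-splice reads at 6 months and the 393-base circle the most at 4 years.

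**Figure D3:**
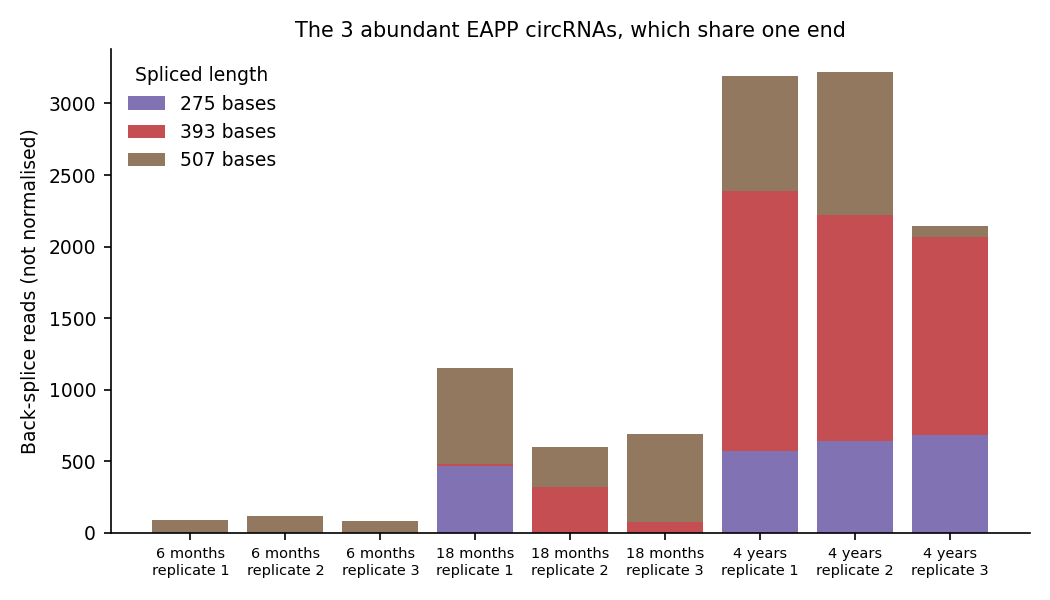
Back-splice reads, not normalised, of the EAPP circles of 275, 393 and 507 bases, stacked for each of the 9 libraries. The 393-base circle has 0 reads in the 3 bars at 6 months and has 1384 to 1820 reads in each bar at 4 years.

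Other circles at or near 0 at 6 months had hosts that changed far less or were not called. A 796-base circle of TRPM3, a cation channel, had no read at 6 months, 234, 152 and 256 CPM at 18 months and 1192, 838 and 545 at 4 years, at least 23.3-fold and 97.9-fold higher (edgeR adjusted p = 0.015 and 0.0056). The ages did not overlap, with every 4-year library above every 18-month library. The TRPM3 gene was at 3.83 ± 0.295, 4.08 ± 2.00 and 5.32 ± 1.27 CPM and was not called (log2 0.47, edgeR adjusted p = 0.31). Its symbol stands on more than 1 identifier.

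A 945-base circle of WDR74, a ribosome assembly factor, had no read at 6 months and 1403, 310 and 713 CPM at 18 months and 1372, 743 and 436 at 4 years, at least 97.1-fold higher at 4 years (edgeR adjusted p = 0.0063, gene log2 0.71). All 11 WDR74 circles summed had 0, 6 and 4 reads at 6 months (log2 5.92 ± 0.69 at 4 years, edgeR adjusted p = 0.00044). A 1329-base circle of ADAMTSL3, a secreted matrix protein, had 16.9, 17 and 30.1 CPM at 6 months, 954, 165 and 876 at 18 months and 1529, 1657 and 1294 at 4 years (log2 6.07 ± 0.79 at 4 years, edgeR adjusted p = 0.0056, gene 1.53). A 629-base circle of CABIN1, a calcineurin inhibitor, was at 16.9, 17 and 20.1, then 617, 310 and 434, then 405, 562 and 627 CPM (log2 4.80 ± 0.62, edgeR adjusted p = 0.0056, gene 1.29). The older ages overlapped for WDR74 and CABIN1 but not for ADAMTSL3, and in all 3 every older library lay above every 6-month library.

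Other circles were lower at both older ages than at 6 months. A 1293-base circle of AASS, an enzyme of lysine breakdown, had 8895, 8445 and 11892 CPM at 6 months, 1889, 2052 and 1860 at 18 months and 1901, 2009 and 1458 at 4 years, so that the older ages overlapped (log2 -2.33 ± 0.33 and -2.44 ± 0.34, edgeR adjusted p = 0.015 and 0.006; gene -2.42 and -3.04). A 951-base circle of RAVER2, an RNA-binding protein that partners the splicing repressor PTBP1, had 702, 663 and 913 CPM at 6 months, 46.8, 50.7 and 38.7 at 18 months and 11.2, 19.0 and 13.6 at 4 years (log2 -5.58 ± 0.63 at 4 years, edgeR adjusted p = 0.0056, gene -3.82). No library at an older age reached a 6-month library in either.

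A 477-base circle of SOBP had 355, 374 and 411 CPM at 6 months, 18.7, 19.0 and 38.7 at 18 months and no read at 4 years, at least 33.7-fold lower (edgeR adjusted p = 0.0062). The SOBP gene was at 18.1 ± 1.90, 13.1 ± 8.62 and 33.8 ± 6.56 CPM and was not called (log2 0.90, edgeR adjusted p = 0.069). All SOBP circles summed gave 68, 73 and 82 reads at 6 months, 2, 7 and 10 at 18 months and 4, 0 and 4 at 4 years (log2 -4.50 ± 0.76, edgeR adjusted p = 0.0016).

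A 551-base circle of BAZ2B, a bromodomain protein, had 2336, 1929 and 1646 CPM at 6 months, 271, 671 and 542 at 18 months and 180, 343 and 109 at 4 years (log2 -3.21 ± 0.58 at 4 years, edgeR adjusted p = 0.01), while the gene was at 65.7 ± 1.19 and 85.8 ± 10.5 CPM at 6 months and 4 years (log2 0.38, edgeR adjusted p = 0.13). A 182-base circle of DNAAF9, a dynein assembly factor, had 474, 331 and 371 CPM at 6 months and no read at 4 years, at least 35.1-fold lower (edgeR adjusted p = 0.0085). All DNAAF9 circles summed fell less (log2 -1.32 ± 0.36, edgeR adjusted p = 0.018), and the gene was not called (log2 -0.26). Between the 6-month and 4-year libraries neither circle overlapped.

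At 18 months against 6 months, 142 of the 3166 circRNAs were called, 124 higher and 18 lower, where 5.26% of circRNAs of all types were called, 4.72% higher and 0.542% lower (edgeR). Of the 124, 66 had no read at 6 months. These counts moved with the library left out: without replicate 1 at 6 months none passed. Without replicate 2 at 18 months 283 were higher and 36 lower. The other fits that left out a library gave 15 to 62 higher. Leaving out replicate 1, 2 or 3 at 4 years, an age not compared here, gave 36, 62 or 26 higher. All ages share 1 estimate of the spread, and what moved the counts was not tested. None of the 124 and 2 of the 18 were circRNAs of irregular counts, whose spread within an age makes a call less likely. On host sums 204 hosts were higher and 67 lower (9.32% called, 7.02% higher and 2.3% lower), and 163 of the 204 genes were themselves called higher, where 59.9% of all genes were called and 32.8% higher.

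Replicate 2 at 18 months had the lowest level of its age for several germ-line circles named above: 469 CPM for DNAH14 against 3029 and 1999, 279 for CIT against 2104 and 814, 595 for BOLL against 1879 and 1589, and 76.0 for DPY19L2 against 2440 and 953. For MAP7 and PHF21A it was the highest of its age. The range of germ cell markers at 18 months, 279 to 1744 CPM, was likewise the widest of the 3 ages.

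Germ-line lists had fewer calls at 18 months than at 4 years: 4 of 18 higher for spermatid and acrosome hosts (median 3.12, or 2.17 with bounds), 7 of 48 for flagellum hosts (2.28, or 2.09) and 1 of 28 for meiosis hosts (1.00), with none lower and none left without replicate 1 at 6 months. A few circles were at 0 at 18 months alone. A 269-base circle of FRY, a protein of cell shape and the spindle, had 525, 170 and 221 CPM at 6 months, 0 reads in all 3 libraries at 18 months and 124, 114 and 40.9 CPM at 4 years. It was at least 40.7-fold lower at 18 months (edgeR adjusted p = 0.018), a call that was lost without replicate 1 at 6 months or replicate 3 at 18 months. All 29 FRY circles summed had 112, 70 and 57 reads at 6 months, 10, 88 and 47 at 18 months and 22, 23 and 6 at 4 years, and the sum was not called at 18 months (log2 -1.07 ± 0.57, edgeR adjusted p = 0.26). LRCH2, on chromosome X, had a 649-base circle with 127, 136 and 201, then 0, 0 and 0, then 11.2, 28.6 and 27.2 CPM (edgeR adjusted p = 0.028 at 18 months).

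Between 18 months and 4 years no annotated-exon circRNA passed the edgeR test, and 226 had an unadjusted p under 0.05. Of circRNAs of all types 0% were called, and of 16732 genes 1 was called, lower (0.00598%). DESeq2 called 17 higher and 18 lower at 4 years, with 328 at an unadjusted p under 0.05, and edgeR without a filter on low counts called 8 and 14. The levels of 18.4% of the tested circRNAs did not overlap between these ages, against 30.4% between 6 and 18 months and 47.1% between 6 months and 4 years. Without any change, 3 against 3 libraries separate with a probability of 0.1, so the 18.4% is not read as change. The comparison of 18 months with 4 years shares libraries with the other 2.

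CircRNA and host changes were compared over the 3155 tested circRNAs with a tested host gene, where both values come from the same library. For 4 years against 6 months the Pearson correlation of their log2 fold changes was 0.66, and at 18 months 0.64, as a description across circRNAs that share hosts, libraries and depth. Of the 388 circRNAs called higher at 4 years, the host gene was called higher for 315, lower for 21 and neither for 51, and 1 host was not tested. Of the 181 called lower, the host was lower for 143, higher for 17 and not called for 21. Over all genes 73.9% were called in this comparison, 36.8% higher and 37.2% lower.

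The ratio of a circRNA to its host was tested in limma on log2 values. From 6 months to 4 years 150 ratios were higher and 204 lower (background over circRNAs of all types 12%, 5.43% higher and 6.54% lower), and at 18 months 59 were higher and 69 lower (background 4.5%, 2.1% and 2.4%). None passed between 18 months and 4 years, with 272 at an unadjusted p under 0.05 in limma and 1 call when edgeR used the host as an offset. Counts moved with the pseudocount, from 354 in all at 4 years with 0.5 to 625 with 2.

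**Figure D4:**
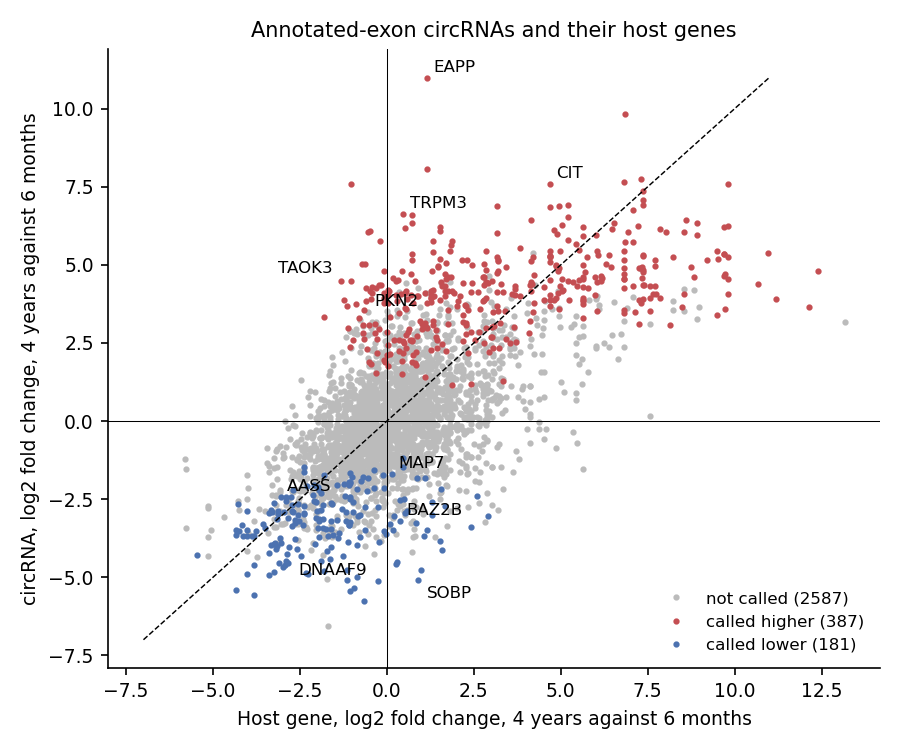
Log2 fold change at 4 years against 6 months of 3155 annotated-exon circRNAs (vertical) against that of their host genes (horizontal), with the dashed line where both are equal; a circRNA with 0 reads at an age is drawn at its bound. Red and blue points are circRNAs called higher (387) and lower (181); most lie in the same quadrant as their host, EAPP and TRPM3 stand high above hosts near 1.15 and 0.47, and SOBP lies low beside a host at 0.90.

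Circles that went against their host were found in both directions. The 21 circRNAs that were higher at 4 years with a lower host came from 20 hosts (among them ABCA6, ABCC5, AGO3, BAZ1B, CDK13, COL14A1, DCAF10, ELOVL5, JMY, LRBA, PDLIM5, PKN2, POLA1, PPP2R3A, RDX, SLC30A9, STAG1, SUCLG2 and TAOK3). The ratio was called for all 21, which is no separate support, since they were selected by opposite calls in the same counts. A 705-base circle of TAOK3, a kinase of stress signalling, had no read at 6 months, 290, 69.7 and 163 CPM at 18 months and 180, 181 and 245 at 4 years, at least 22.2-fold higher (edgeR adjusted p = 0.0098, ratio adjusted p = 0.0026 in limma). The TAOK3 gene went from 42.3 ± 3.55 to 16.8 ± 1.51 CPM (log2 -1.33 ± 0.18, edgeR adjusted p = 0.00024), and the sum of all 22 TAOK3 circles was not called (log2 0.93 ± 0.49, edgeR adjusted p = 0.17).

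PKN2, a serine/threonine kinase, and PPP2R3A, a regulatory subunit of protein phosphatase 2A, gave further such circles. The 1445-base PKN2 circle had no read at 6 months, 18.7, 12.7 and 23.2 CPM at 18 months and 124, 200 and 191 at 4 years (at least 19.2-fold, edgeR adjusted p = 0.013, gene log2 -0.60). The 487-base PPP2R3A circle had 1 read in the 6-month libraries, 112, 82.3 and 77.5 CPM at 18 months and 135, 152 and 109 at 4 years (edgeR adjusted p = 0.042 and 0.013, gene log2 -0.62 at both), a ratio of 45.2 at 4 years with a 95% counting interval of 7.61 to 1833. For both, every 4-year library was above every 6-month library, and the call at 4 years was kept in every fit that left out a library. All PPP2R3A circles summed had 1, 1 and 15 reads at 6 months and 16, 22 and 12 at 4 years, and the sum was not called at 18 months or 4 years (edgeR adjusted p = 0.29 and 0.16). The sum of the 17 PKN2 circles was called at 4 years (log2 1.77 ± 0.56, edgeR adjusted p = 0.033) and not at 18 months (edgeR adjusted p = 0.71).

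Circles lower at 4 years with a higher host were 17, from CEP162, CNTLN, DCUN1D4, DENND5A, DLG5, FBXW4, ILRUN, MAN2A1, MBOAT2, MMADHC, SLAIN2, SLC22A23, SRPK2, SUCO, USP3, XYLT1 and ZNF451. All had a called ratio, which their selection by opposite calls again makes likely. A 1202-base circle of HIPK1, a nuclear kinase, had 1498, 1810 and 2017 CPM at 6 months and 720, 876 and 490 at 4 years, and was itself not called (edgeR adjusted p = 0.051), while the gene was higher (log2 1.08) and the log2 ratio was -2.45 (limma adjusted p = 0.03). In fits that left out any 6-month or 4-year library that ratio was not called.

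In other hosts the gene rose by more than the circle did. ZPBP, a zona-binding protein of the acrosome, gave a 446-base circle with 161, 297 and 271 CPM at 6 months, 346, 171 and 232 at 18 months and 281, 571 and 327 at 4 years, which overlap (log2 0.69, edgeR adjusted p = 0.41). Its gene rose by 4.39, and the ratio was -3.75 on the log2 scale (limma adjusted p = 0.0046). A 1384-base circle of SLC6A16, a transporter-like protein, rose by 3.06 on the log2 scale while its gene rose by 8.14 (ratio -5.40, limma adjusted p = 0.0027), and its symbol stands on more than 1 identifier. A 1087-base circle of PTBP3, a polypyrimidine tract-binding protein, went the other way, from 288, 161 and 211 to 1091, 1181 and 722 CPM (log2 2.18 ± 0.47, edgeR adjusted p = 0.015) beside a gene at -0.30 that was not called. Its call was lost without replicate 2 or 3 at 6 months.

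The signs of circles of the same host were compared. Of 683 hosts with at least 2 tested circles (1938 circRNAs), all tested circles had the same sign at 4 years for 396, or 58.0%, and of the 373 hosts with exactly 2, both had the same sign for 250, or 67.0%. At 18 months the shares were 55.6 and 64.1%. The share for circles of different hosts was not computed, so these shares are not read as a trait of hosts. No host with at least 2 called circles, of which there were 76 at 4 years and 21 at 18 months, had calls in both directions.

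CircRNAs called higher at 4 years had a longer median than those called lower. It was 666 bases (interquartile range 493.75 to 914.25) against 517 (424 to 776), with 566 over all tested, and the median genomic span was 15528.5 against 8252 bases. By length the share called higher was 5.08% of 118 circRNAs under 300 bases, 9.30% of 1624 from 300 bases, 15.4% of 995 from 600 bases, 18.3% of 389 from 1000 bases and 17.5% of 40 at 2000 bases or more. The share called lower was 8.47, 5.85, 5.83, 3.86 and 7.5% in the same order. The Pearson correlation of log2 length and log2 fold change was 0.16 at 4 years and 0.12 at 18 months (n = 3166), a weak relation across circRNAs that share hosts. At 18 months the medians ran the other way, with 664.5 bases for the 124 called higher and 717 for the 18 called lower, and spans of 15475 and 15601.5 bases.

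**Figure D5:**
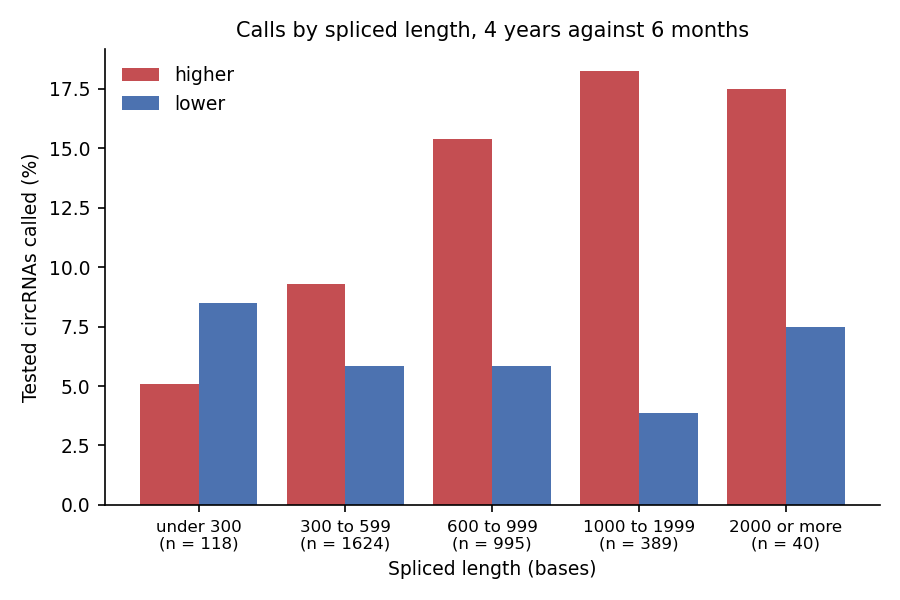
Share of tested annotated-exon circRNAs called higher (red) and lower (blue) at 4 years against 6 months, in % by spliced length in bases, with the number tested under each pair of bars. The share called higher goes from 5.08% under 300 bases to 18.3% at 1000 to 1999 bases, and the last pair rests on 40 circRNAs.

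On chromosome X, 70 circRNAs of 47 hosts were tested, and 12 were called lower and 4 higher at 4 years against 6 months. The median log2 fold change was -1.06, against 0.04 for 3096 autosomal circRNAs, and it stayed negative under every scaling tried (-1.06 to -1.78). Leaving out 1 library gave 4 to 14 lower and 1 to 4 higher. The hosts of these circRNAs had a median of -1.54, against 0.18 on autosomes. A 583-base circle of HUWE1, a ubiquitin ligase, had 2175, 1767 and 1756 CPM at 6 months, 870, 1476 and 1069 at 18 months and 641, 695 and 395 at 4 years (log2 -1.71 ± 0.42, edgeR adjusted p = 0.022, gene -1.80), with no overlap between 6 months and the older ages. Its call was lost in some fits that left out a library.

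Regulators of circRNA formation were read from the gene table, where 42 of the listed genes were tested and 14 were higher and 14 lower at 4 years against 6 months, where 73.9% of all genes were called. ADAR fell by 1.74 on the log2 scale (edgeR adjusted p = 0.0023) and the change of DHX9 was -0.54 (adjusted p = 0.011). QKI was not called (log2 0.17, edgeR adjusted p = 0.38), and the editing enzyme ADARB1 was higher by 3.29 (edgeR adjusted p = 6.1e-05).

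The authors' deposited tables of differing circRNAs name miRNAs predicted to bind each listed circRNA, for the 2 comparisons that involve 18 months. Over 1882 annotated-exon circRNAs the tables named 1030 miRNAs. The median was 42 miRNAs per circRNA, about 6.79 per 100 bases, and the number followed spliced length (Pearson 0.88 with log length over 659 and over 1294 circRNAs, as a description). Of the miRNAs with a mean of at least 100 counts per 1000000 small RNA counts at every age (118), those named for the most circRNAs are shown by their mature sequences as in the deposited small RNA table, written with T, with bases 2 to 8, the seed that pairs with a target, in capitals.
bta-miR-145: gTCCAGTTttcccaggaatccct
bta-miR-15b: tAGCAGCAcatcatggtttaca
bta-miR-16a: tAGCAGCAcgtaaatattggtg
bta-miR-16b: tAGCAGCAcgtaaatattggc
bta-miR-195: tAGCAGCAcagaaatattggca
bta-miR-424-5p: cAGCAGCAattcatgttttga

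The last 5 share a seed, so that a predicted site for 1 of them serves all, and they were named for nearly equal numbers of circRNAs: 208 for bta-miR-15b, bta-miR-16a and bta-miR-16b, 207 for bta-miR-195 and 205 for bta-miR-424-5p. bta-miR-145 was named for 235 of 1882, or 12.5%. The means of the miRNAs of the shared seed ran in different directions with age, which was not tested. bta-miR-15b had a mean of 196 ± 19.2, 484 ± 368 and 902 ± 77.8 counts per 1000000 at 6 months, 18 months and 4 years, and bta-miR-424-5p had 5160 ± 256, 3568 ± 619 and 1522 ± 255. bta-miR-145 had 3242 ± 672, 6168 ± 934 and 6627 ± 1456. These are predictions and levels, and binding was not measured.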

How the data were processed

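CircRNAs and genes were read from 9 ribosomal RNA-depleted libraries, and miRNA levels from 9 small RNA libraries of the same 9 yaks, 3 per age. The deposited circRNA table holds whole counts of back-splice reads, and the deposited gene table holds estimated counts (with fractional values in 3137 of 22183 genes), which were rounded. Spliced length, type and host are the authors' own columns. The deposited tables of differing circRNAs give log2 ratios and p-values, FDR included. Of the calls made here, 563 of 569 at 4 years and 142 of 142 at 18 months against 6 months are listed in the authors' deposited tables, all with the same sign. Those tables come from the same counts and list circRNAs at an unadjusted p under 0.05. Of their annotated-exon circRNAs, 543 of 2806 at 4 years and 45 of 1294 at 18 months have an FDR under 0.05.

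Which program called circRNAs is not given in the sources used here. Names without a role in the submitters' processing notes are HISAT2 2.1.0, StringTie 1.3.4, fastp 0.18.0 and the build UMD3.1. Whether coordinates follow that build was not settled. Spans stop near 100 kb (99971 bases at most). Over all libraries 10607 values are 1 and 52590 are 2, so low counts were cut before deposit and rare circles are under-detected.

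Age was the only factor in 1 edgeR 4.0.16 model (R 4.3.3) of all 9 libraries, fitted on all 73679 circRNAs with filterByExpr (minimum count 10), TMM and the quasi-likelihood F-test, with 6 residual degrees of freedom. Calls have a Benjamini-Hochberg adjusted p under 0.05 over 3877 circRNAs. An SE is the log2 fold change divided by the square root of F. Genes were fitted alike (16732 tested). The circRNA to host ratio, log2 of both counts plus 0.5 less library scaling, was tested in limma 3.58.1. DESeq2 1.42.0 served as an alternative. An age with no read was set to a floor of 3 reads over its libraries. Single values of a library were set against age in exact permutation tests, whose smallest p is 0.0036 over 3 ages and 0.1 for 3 libraries against 3. The fits were tested on simulated data.

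Named circRNAs are the 10 highest in mean CPM, up to 5 per comparison and direction with the smallest p among calls of at least 2-fold with no overlap (for levels and for ratios), those of the 5 hosts with most tested circles, up to 3 per host list and up to 10 of hosts known for circRNAs. For length the text prints part of these, and MON2 and the hosts listed as opposing their circles were picked after their values were seen. The members and host lists were chosen with earlier results of these data known. Replicate numbers did not pair libraries (correlations of deviations between same-numbered libraries from -0.021 to 0.0097).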

Additional observations from a re-analysis of the deposited data

How the results depend on the processing

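Counts of called circRNAs moved with the tool, the scaling, the unit counted and the library left out. At 18 months against 6 months DESeq2 gave 334 higher and 111 lower and host sums 204 and 67, and leaving out 1 library gave 0 to 283 higher and 0 to 36 lower. At 4 years against 6 months DESeq2 gave 361 lower, gene-table library sizes 365 and host sums 365, and leaving out 1 library gave 164 to 516 higher and 64 to 242 lower. Between 18 months and 4 years DESeq2 gave 17 and 18, no filter on low counts 8 and 14, and leaving out 1 library 0 higher and 0 to 1 lower. The replicate number as a block gave 0 and 0 at 18 months and 70 and 20 at 4 years against 6 months, and for the ratios 23 and 35, and 90 and 132; the numbers name different animals.

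Ratio counts at 18 months were 104 higher and 238 lower with a pseudocount of 2, 10 and 11 with the host as an edgeR offset, 35 and 38 for means of at least 10 reads, and 21 to 78 and 47 to 118 when 1 library was left out. At 4 years against 6 months they were 236 and 389 with a pseudocount of 2, and 57 to 179 and 80 to 304 with 1 library left out. Between 18 months and 4 years they were 0 to 2 and 0 to 3 with 1 library left out, and 1 lower with the host as an offset. That offset reversed 6 ratios whose hosts are near 0 at 6 months, none of them called there: log2 7.18 for CCDC7 at 4 years, 6.93 for PIWIL1 at 18 months, 5.08 and 6.67 for MYOT and 6.23 and 5.46 for CFAP95 at 18 months and 4 years. The cause was not tested.

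Leaving out 1 library moved the exact permutation p of reads per 1000000 gene counts to between 0.00714 and 0.211, of the weighted mean length to between 0.00714 and 0.118, of the number at equal depth to between 0.0143 and 0.0964 and of the top 100 share to between 0.00714 and 0.293. It was 0.0321 for the number at equal depth without circRNAs under 10 reads and 0.0214 for the weighted median length. Of 4896 values of named circRNAs under all alternatives, 4330 kept their direction and side of the threshold, 495 lost the call, 65 gained one and 6 reversed. Depth limits the tests to 6.4% of the circRNAs, and the rest were not tested; the authors' deposited table lists 1674 of these at 4 years against 6 months at an unadjusted p under 0.05.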
